A study of Mus musculus with 6 samples.

Results

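In the mouse, 10 of the carboxylesterase genes, *Ces1b*, *Ces1c*, *Ces1d*, *Ces1e*, *Ces1f*, *Ces1g*, *Ces2a*, *Ces2e*, *Ces3a* and *Ces3b*, were followed in the liver of mice that lack flavin-containing monooxygenase 5 (FMO5) and of wild-type (WT) mice. They were found by gene symbol, and their counts were joined by Ensembl identifier. They are 10 of the 54446 genes listed, and a further 10 carboxylesterase genes in the files served for comparison. All 10 passed the filter on low counts. RNA-seq was performed on 6 livers, 3 from WT mice and 3 from *Fmo5*-/- mice, with 1 library per mouse. The animals were male, 32 weeks old, of a C57BL/6J background, fed standard chow and housed in adjacent cages. The groups are told apart by the disruption of *Fmo5*, and the labels name no treatment. The cell type that each transcript came from was not measured, so fewer cells of a type and less RNA per cell cannot be told apart.

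Carboxylesterases are serine hydrolases that cleave the ester and amide bonds of drugs, of other foreign chemicals and of lipids. Most of them are held in the lumen of the endoplasmic reticulum (ER) of the hepatocyte by a retrieval signal at the carboxyl end, and a few are secreted into plasma. In rodents the family has been expanded by tandem duplication, and CES1 enzymes of the mouse liver are known for releasing fatty acids from stored triacylglycerol for the assembly of very-low-density lipoprotein (VLDL).

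The libraries had between 44886286 and 52338675 counts on genes, and the 10 carboxylesterases made up 0.65% to 0.734% of these. *Fmo5* itself had a mean normalized count of 35818 in WT mice and of 1122 in *Fmo5*-/- mice, a log2 fold change of -5.00. Markers of hepatocytes summed to 121000 to 152000 counts per 1e6 counts (CPM) in WT mice and to 121000 to 149000 in *Fmo5*-/- mice. A normalized count is the count of a gene after each library was brought to the mean scaled size of the 6 libraries. A gene was called different where the adjusted p of the quasi-likelihood test of edgeR was under 0.05 and the mean normalized count was 500 or more. Log2 fold changes are of *Fmo5*-/- over WT mice, errors of means are SD with n = 3, and intervals are 95% confidence intervals. Most of the sum of hepatocyte markers is *Alb*, with a mean normalized count of 4880504 in WT mice. Of the 10 hepatocyte markers, 9 had a log2 fold change below 0, with a median of -0.09, 1 was lower without overlap and 0 were called. Among genes with a mean of 500 or more, 64% were below 0 and 21.9% were lower without overlap.

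The 10 genes lie on chromosome 8 (mm10, GENCODE vM21) in 2 groups. The *Ces1* genes are read from the minus strand, and those studied lie in the order *Ces1b*, *Ces1c*, *Ces1d*, *Ces1e*, *Ces1f* and *Ces1g*. *Ces1e* (ENSMUSG00000061959.13) spans chr8:93201218-93229619 and ends 3.38 kb upstream of the start of *Ces1d* (chr8:93166068-93197838). *Ces1f* (chr8:93256236-93279747) follows after 26.6 kb and *Ces1g* (chr8:93302369-93337308) after a further 22.6 kb. *Ces2a* (chr8:104734003-104741634), *Ces2e* (chr8:104926260-104934672), *Ces3a* (chr8:105048601-105058413) and *Ces3b* (chr8:105083753-105093929) are read from the plus strand and form a second group farther along the chromosome. Each of the *Ces1* genes studied has 14 blocks of exons. The coding sequences of *Ces3a* and *Ces3b* were identical at 95.3% of aligned bases, those of *Ces1b* and *Ces1c* at 91.1%, and those of *Ces2a* and *Ces2e* at 83.8%, whereas *Ces1e* matched its neighbour *Ces1d* at 80.7% and *Ces1g* at 79.2%.

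The likeness between copies bears on how far their counts can be told apart, because a read that maps to several places was not counted. Of the 75-base stretches in the exons of *Ces1d*, *Ces1f* and *Ces1g*, 100% occur in no other transcript, and for *Ces1e* the share is 99%. *Ces3a* and *Ces3b* share 418 such stretches, which are 15.1% of those of *Ces3a* and 15.4% of those of *Ces3b*. *Ces2a* shares 11.4% of its stretches with the gene model *Gm7208*, and *Ces1b* shares 4.5% of its stretches with *Ces1c*. Levels of these genes are therefore uncertain to that extent, and reads from *Ces3a* and *Ces3b* that fall in the shared stretches were lost from both. Over whole libraries, reads that map to several places were 11.8% to 13.1% of the reads listed in WT and 10.4% to 11.5% in *Fmo5*-/- mice, unmapped reads 9.72% to 10.1% and 9.1% to 9.2%, and reads in several genes 3.52% to 3.62% and 3.72% to 3.98%, each without overlap between the genotypes. The part of these shares in the differences between genotypes was not tested.

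Sequences upstream of the start, from RefSeq (GRCm38.p6), were matched for 7 of the 10 genes. Those of *Ces1d*, *Ces1f* and *Ces3a* were not analysed here. Only bases that lie in no exon are printed. The pair *Ces1b* and *Ces1c* is shown because these neighbours have the most similar upstream sequence of the 7 genes and yet the lowest and the highest level of the 10, as described below. The capitals mark the longest stretch that both share, 58 bases, which ends 38 bases before the start of *Ces1b* (chr8:93080018-93080267, minus strand) and 126 bases before that of *Ces1c* (chr8:93131284-93131533, minus strand).
Ces1b: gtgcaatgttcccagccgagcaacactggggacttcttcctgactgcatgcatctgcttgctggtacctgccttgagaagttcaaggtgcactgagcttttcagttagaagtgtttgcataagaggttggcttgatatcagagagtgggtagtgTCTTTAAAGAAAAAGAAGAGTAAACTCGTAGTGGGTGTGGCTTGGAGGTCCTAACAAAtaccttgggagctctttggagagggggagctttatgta
Ces1c: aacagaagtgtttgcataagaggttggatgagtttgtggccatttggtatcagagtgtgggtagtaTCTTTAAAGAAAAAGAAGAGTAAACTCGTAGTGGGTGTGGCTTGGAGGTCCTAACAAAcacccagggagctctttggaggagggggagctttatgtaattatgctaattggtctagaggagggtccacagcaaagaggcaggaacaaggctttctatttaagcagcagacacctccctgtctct
*Ces1e* (chr8:93229620-93229869, minus strand) and *Ces1g* (chr8:93337309-93337459, minus strand, 151 bases) are shown because the former was the gene called lower and the latter the *Ces1* gene with the smallest change. Their longest shared stretch, in capitals, is of 11 bases.
Ces1e: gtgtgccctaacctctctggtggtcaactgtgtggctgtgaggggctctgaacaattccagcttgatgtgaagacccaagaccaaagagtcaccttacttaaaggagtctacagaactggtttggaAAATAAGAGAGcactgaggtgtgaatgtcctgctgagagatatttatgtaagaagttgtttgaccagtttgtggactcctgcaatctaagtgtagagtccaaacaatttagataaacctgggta
Ces1g: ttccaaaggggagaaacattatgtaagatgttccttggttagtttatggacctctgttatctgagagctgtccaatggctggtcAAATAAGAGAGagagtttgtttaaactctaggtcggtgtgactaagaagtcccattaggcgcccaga
*Ces3b* (chr8:105083505-105083752, plus strand) is shown because it varied most between mice. The capitals mark the letters GTTAAT, found in sites of HNF1 factors, and the letters TATAAA of a TATA box, 56 and 30 bases before the RefSeq start.
Ces3b: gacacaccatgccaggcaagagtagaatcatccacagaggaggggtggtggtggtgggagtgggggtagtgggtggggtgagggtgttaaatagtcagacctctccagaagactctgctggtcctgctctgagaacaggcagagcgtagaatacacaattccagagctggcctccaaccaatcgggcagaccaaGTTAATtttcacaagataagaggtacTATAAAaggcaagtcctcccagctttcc
In all, 5 sets of letters were searched on both strands of windows of 300 bases, 250 before to 50 after the start. The core of the antioxidant response element, TGACNNNGC, was in 0 of the 8 windows of these genes and in 12.4% of all 32851 windows. GTTAAT was in 1 of the 8 windows (7.1% of all), TATAAA in 2 (13.6% of all) and AGGTCA, found in sites of many nuclear receptors, in 1, that of *Ces2a* (16.3% of all). AGTTCA, found in sites of the xenobiotic receptors PXR and CAR, was in 2 windows, both of *Ces1b*, where they hold the same bases seen from different annotated starts (14% of all).

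The genes differed widely in level. On the scale of CPM per kb of exon, the mean in WT mice was 1069 ± 121 for *Ces1c*, which encodes the carboxylesterase secreted into plasma, and 748 ± 39.2 for *Ces3a*. *Ces1d*, which encodes triacylglycerol hydrolase, followed at 302 ± 52.1 and *Ces1f*, which encodes a second triacylglycerol hydrolase, at 196 ± 22.4. The levels in WT mice were 172 ± 73.2 for *Ces3b*, 150 ± 8.58 for *Ces2a*, 129 ± 8.32 for *Ces1e*, 102 ± 10.2 for *Ces1g*, 94.6 ± 12.7 for *Ces2e* and 35.1 ± 6.96 for *Ces1b*. In this order of levels, the neighbours *Ces1f* and *Ces3b*, *Ces3b* and *Ces2a*, and *Ces1g* and *Ces2e* overlapped among WT mice, and the other neighbours did not. *Ces1c* was above *Ces3a*, *Ces3a* above *Ces1d* and *Ces2e* above *Ces1b* in each of the 6 mice without overlap. The order of *Ces1e* and *Ces1g* held in 3 of 6 mice: *Ces1e* was above *Ces1g* in every WT mouse and below it in every *Fmo5*-/- mouse, where the levels were 78.1 ± 15.8 and 102 ± 10.5.

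**Figure D1:**
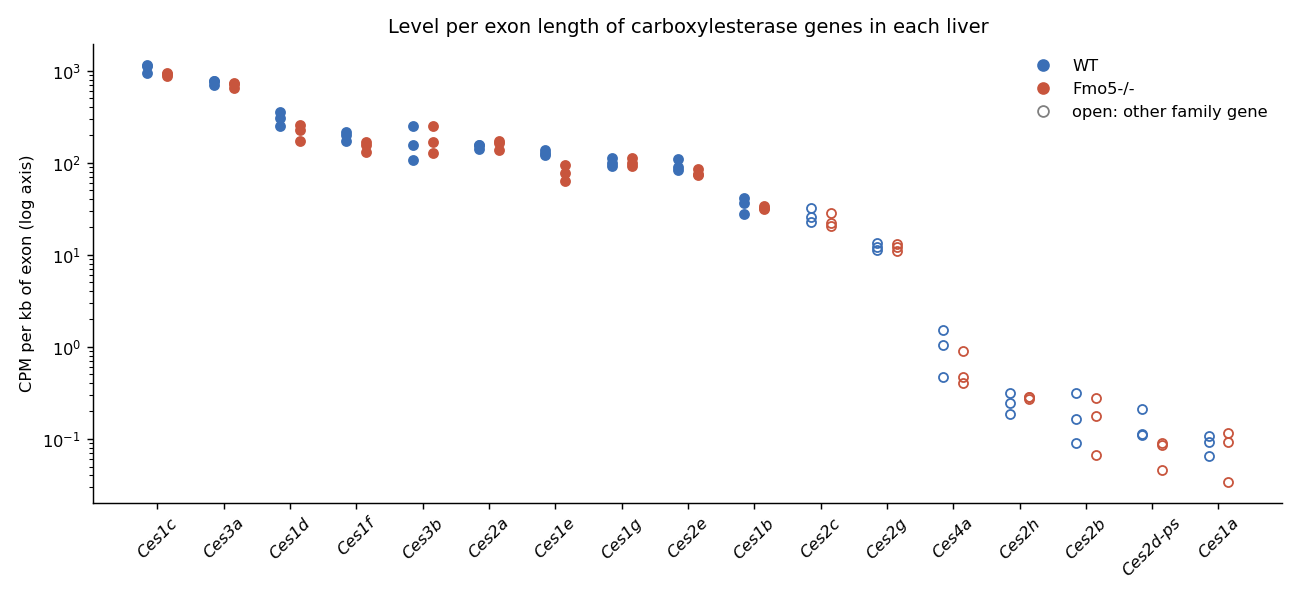
Level per exon length, in CPM per kb of exon on a log axis, of carboxylesterase genes in the 3 WT and 3 *Fmo5*-/- livers, with 1 point per mouse and open points for genes outside the 10. *Ces1h*, *Ces2f* and *Ces5a*, with the lowest levels, are left out. The 10 genes lie between the level of *Ces1c*, with a WT mean of 1069, and that of *Ces1b*, with a WT mean of 35.1, and of the other family genes only *Ces2c*, which reaches 32 in its highest liver, overlaps *Ces1b*.

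*Ces1e* was the only gene of the 10 that was called. It encodes egasyn, the esterase that binds β-glucuronidase and keeps it in the ER. Its normalized counts were 14709, 12952 and 13594 in the WT mice and 8201, 6736 and 10100 in the *Fmo5*-/- mice. Each *Fmo5*-/- mouse lay below each WT mouse, and the spread was wider among *Fmo5*-/- mice, where the coefficient of variation was 20.2%, against 6.46% among WT mice. The abundance fell by 39.3%, a log2 fold change of -0.72 with an interval of -1.04 to -0.40 (adjusted p = 0.0479 from edgeR). The call was close to the threshold: it was lost when any library but that of the third *Fmo5*-/- mouse was left out, with adjusted p from edgeR between 0.0884 and 0.147, whereas without the third *Fmo5*-/- mouse the adjusted p was 0.00827. The sign was negative in all 12 alternative fits.

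*Ces1d*, the immediate neighbour, had normalized counts of 40691, 28675 and 35482 in WT mice and of 29660, 19821 and 26183 in *Fmo5*-/- mice. The second WT mouse lay below the first *Fmo5*-/- mouse, so the genotypes overlapped. The log2 fold change was -0.47 with an interval of -0.86 to -0.08, and the gene was not called (adjusted p = 0.162 from edgeR). *Ces1f*, on the other side of *Ces1e*, had normalized counts of 34928, 27754 and 31684 in WT mice and of 24672, 21222 and 26679 in *Fmo5*-/- mice. These did not overlap between the genotypes. Its log2 fold change was -0.38 with an interval of -0.65 to -0.11, and it was not called either (adjusted p = 0.119 from edgeR). With DESeq2, *Ces1d* (adjusted p = 0.0483), *Ces1e* (adjusted p = 0.000108) and *Ces1f* (adjusted p = 0.0348) were all called lower.

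Of 6 adipocyte markers, 1 passed the filter on low counts, complement factor D (*Cfd*). It had normalized counts of 953, 553 and 452 in WT mice and of 41, 129 and 40.3 in *Fmo5*-/- mice, without overlap, a log2 fold change of -3.21 (adjusted p = 0.0633 from edgeR and 3.44e-05 from DESeq2). Its mean of 361 is below the 500 that a call requires, so it could not be called. The 6 markers summed to 9.37 to 22 CPM in WT mice and to 0.885 to 2.92 in *Fmo5*-/- mice. *Adipoq*, *Plin1* and *Lep*, the defining markers, were highest in the first WT mouse, with 38, 43 and 8 raw counts, and had at most 8, 7 and 1 in any other. The first WT mouse was also the highest of the 6 for *Ces1d*, *Ces1e* and *Ces1f*. The third WT mouse, with 1, 0 and 0 raw counts of these markers, was next for all 3 genes and above the second WT mouse, with 6, 7 and 1. Without the first WT mouse, the log2 fold change was -0.34 for *Ces1d* (adjusted p = 0.418 from edgeR), -0.66 for *Ces1e* (adjusted p = 0.147 from edgeR) and -0.29 for *Ces1f* (adjusted p = 0.357 from edgeR), and none of them was called. The values moved by as much or more without the second *Fmo5*-/- mouse, to -0.32 for *Ces1d*, -0.59 for *Ces1e* and -0.29 for *Ces1f*, again with none called. The part of adipocytes in these values was not tested.

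**Figure D2:**
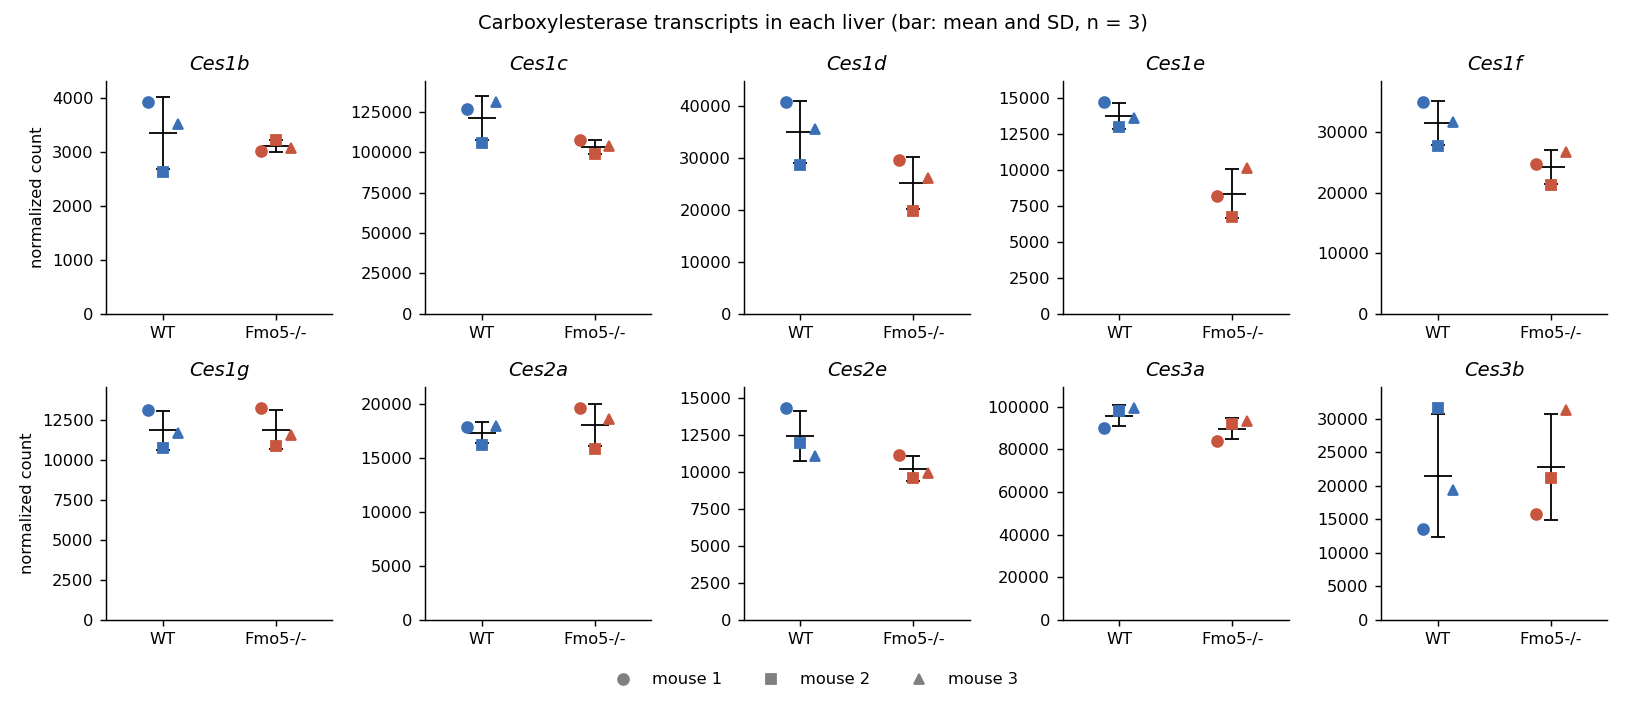
Normalized count of each of the 10 genes in each WT and *Fmo5*-/- liver, on axes that start at 0. Points are mice and bars give mean and SD (n = 3 each). Only the points of *Ces1e* and *Ces1f* do not overlap between the genotypes.

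The other *Ces1* genes differed less. *Ces1c* had normalized counts of 126832, 105581 and 131073 in WT mice and of 107535, 98963 and 103924 in *Fmo5*-/- mice. Only the second WT mouse fell among the *Fmo5*-/- mice. The log2 fold change was -0.23 with an interval of -0.47 to 0.02 (adjusted p = 0.26 from edgeR). *Ces1b*, the copy closest to *Ces1c*, had normalized counts of 3931, 2628 and 3528 in WT mice and of 3030, 3234 and 3077 in *Fmo5*-/- mice. All 3 *Fmo5*-/- mice lay inside the WT range, and the log2 fold change was -0.11 with an interval of -0.42 to 0.19 (adjusted p = 0.681 from edgeR). *Ces1g*, which encodes esterase-x, a further lipid and drug hydrolase, had normalized counts of 13103, 10749 and 11646 in WT mice and of 13218, 10852 and 11525 in *Fmo5*-/- mice. The genotypes covered nearly the same range, with a log2 fold change of 0.00 and an interval of -0.24 to 0.25 (adjusted p = 0.988 from edgeR).

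Because *Ces1g* had the smallest change, it was chosen after its values were seen as a yardstick within each liver. A ratio of raw counts does not depend on the scaling of libraries, but the choice of *Ces1g* does, since its change was read from scaled counts. The ratios to *Ces1g* therefore restate the log2 fold changes above and are not separate evidence. The ratio of *Ces1e* to *Ces1g* raw counts was 1.12, 1.2 and 1.17 in WT mice and 0.62, 0.621 and 0.876 in *Fmo5*-/- mice. The WT mice thus lay within a narrow range, above all *Fmo5*-/- mice. The ratio of *Ces1d* to *Ces1g* was 2.67 to 3.11 in WT mice and 1.83 to 2.27 in *Fmo5*-/- mice, and that of *Ces1f* to *Ces1g* was 2.58 to 2.72 against 1.87 to 2.31. The ratio of *Ces1c* to *Ces1g* was 9.68 to 11.3 against 8.14 to 9.12, also without overlap, and that of *Ces1b* to *Ces1g* overlapped. Among genes with a mean of 500 or more, the ratio to *Ces1g* was lower without overlap for 15.5%. The carboxylesterase genes on either side of *Ces1e* are *Ces1d* and *Ces1f*. The ratio of *Ces1e* to *Ces1d* was 0.399 ± 0.0471 in WT mice and 0.334 ± 0.0548 in *Fmo5*-/- mice, with overlap. Against *Ces1f* it was 0.421, 0.467 and 0.429 in WT mice and 0.332, 0.317 and 0.379 in *Fmo5*-/- mice, without overlap. No test was run on the ratios.

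**Figure D3:**
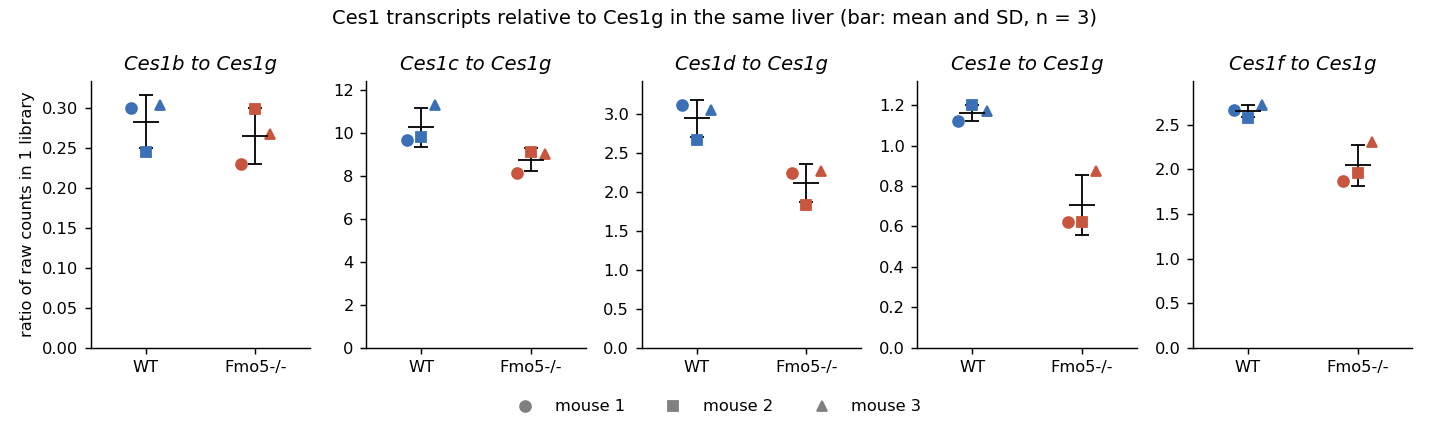
Ratio of the raw counts of 5 *Ces1* genes to those of *Ces1g* in the same liver, on axes that start at 0, with 1 point per mouse and bars for mean and SD (n = 3 each). The ratio of *Ces1e* lies between 1.12 and 1.2 in WT mice and between 0.62 and 0.876 in *Fmo5*-/- mice.

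Of the CES2 enzymes, which act on drug esters and acylglycerols, neither was called. *Ces2a* had normalized counts of 17856, 16178 and 17918 in WT mice and of 19572, 15851 and 18599 in *Fmo5*-/- mice. The *Fmo5*-/- mice extended beyond the WT range at both ends, and the log2 fold change was 0.06 with an interval of -0.18 to 0.29 (adjusted p = 0.8 from edgeR). *Ces2e* had normalized counts of 14316, 11958 and 11085 in WT mice and of 11172, 9607 and 9919 in *Fmo5*-/- mice. The genotypes overlapped by 1 pair of mice, the third WT mouse and the first *Fmo5*-/- mouse. The log2 fold change was -0.28 with an interval of -0.54 to -0.03 (adjusted p = 0.192 from edgeR). Within a liver the ratio of *Ces2e* to *Ces2a* was 0.802, 0.739 and 0.619 in WT mice and 0.571, 0.606 and 0.533 in *Fmo5*-/- mice, with no overlap, where 20.1% of genes with a mean of 500 or more were lower without overlap against *Ces2a*.

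The *Ces3* pair, which is related to human CES3, contrasted in spread rather than in genotype. *Ces3a* had normalized counts of 90081, 98107 and 99315 in WT mice and of 83953, 91974 and 93234 in *Fmo5*-/- mice. The ranges overlapped, the coefficient of variation was 5.24% and 5.61%, and the log2 fold change was -0.10 with an interval of -0.31 to 0.12 (adjusted p = 0.603 from edgeR). *Ces3b* had normalized counts of 13564, 31526 and 19391 in WT mice and of 15753, 21168 and 31350 in *Fmo5*-/- mice. The second WT mouse and the third *Fmo5*-/- mouse stood high, and the first of each genotype low, so that the coefficient of variation was 42.6% and 34.8%. The log2 fold change of 0.08 has an interval of -0.88 to 1.05 (adjusted p = 0.926 from edgeR), and a change of this gene by genotype was not detectable within that interval. The ratio of *Ces3b* to *Ces3a* ranged from 0.151 to 0.336 over the 6 mice, although the coding sequences of these genes are nearly alike.

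Over the 10 genes, 1 was called lower and 0 higher by edgeR, where 0.496% of the 16734 tested genes were called lower and 0.257% higher. All 10 have a mean normalized count of 500 or more, and among the 7819 genes of that kind 1.06% were called lower. By DESeq2, 3 of the 10 were called lower and 0 higher, where 3.39% of the genes tested were called lower and 1.39% higher, and 6.77% of those with a mean of 500 or more were called lower. These 3 calls repeat those of the study. By edgeR with no filter on low counts, 3 of the 10 were also called lower, where 2.06% of all genes with a read and 9% of those with a mean of 500 or more were. That fit gave nearly equal standard errors to most of the 10 genes, which limits its p-values, as described below. At an unadjusted p under 0.05 from edgeR, 4 of the 10 were lower and 0 higher, namely *Ces1d*, *Ces1e*, *Ces1f* and *Ces2e*, against 10.2% of all tested genes and 17.6% of those with a mean of 500 or more. *Ces1e* and *Ces1f* were lower without overlap, 2 of 10, which is near the 21.9% found among genes whose mean reached 500, and above the 13.5% of all tested genes. The median log2 fold change of the 10 genes was -0.17, that of the genes with a mean of 500 or more was -0.062 and that of all tested genes 0.006. The sign was negative for 7 of the 10 genes, where 64% of the genes with a mean of 500 or more were lower.

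**Figure D4:**
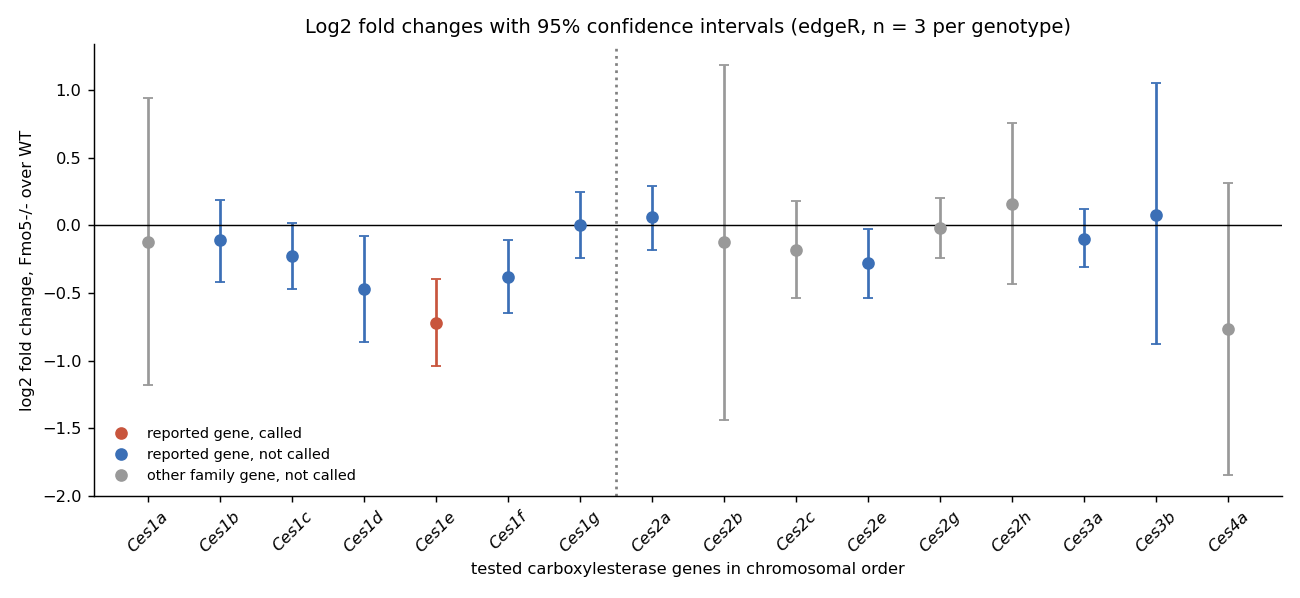
Log2 fold change (*Fmo5*-/- over WT, n = 3 each) with its 95% confidence interval, from edgeR, for the 16 tested carboxylesterase genes in chromosomal order, with a dotted line between the *Ces1* group and the second group. *Ces1d*, *Ces1e* and *Ces1f* lie next to each other, and the lowest point among the 10 genes is that of *Ces1e*, at -0.72.

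The 10 transcripts together summed to 370011, 346107 and 374717 normalized counts in WT mice and to 316767, 299428 and 334591 in *Fmo5*-/- mice. The sums did not overlap, and the mean in *Fmo5*-/- mice was 87.2% of that in WT mice. This depends on the scaling factors of the libraries (TMM), which were 0.957, 0.975 and 0.956 in WT mice and 1, 1.08 and 1.03 in *Fmo5*-/- mice. As a share of counts on genes, without these factors, the 10 genes overlapped between the genotypes. They held 0.726%, 0.691% and 0.734% in WT mice and 0.65%, 0.664% and 0.708% in *Fmo5*-/- mice. In normalized counts, the 6 *Ces1* genes summed to 81.4% of the WT mean, the *Ces2* pair to 94.9% and the *Ces3* pair to 95.9%. *Ces1c* and *Ces3a* held 33.3% and 26.4% of the WT sum and 32.7% and 28.4% of that in *Fmo5*-/- mice. The share of *Ces1e* was 3.78% ± 0.177 in WT mice, against 2.62% ± 0.385 in *Fmo5*-/- mice, and that of *Ces2a* was 4.76% ± 0.078 against 5.68% ± 0.454. The share of *Ces1f* was 8.64% ± 0.728 against 7.62% ± 0.467. None of these shares of *Ces1e*, *Ces2a* and *Ces1f* overlapped between the genotypes, although the normalized counts of *Ces2a* did. The shares of all the other genes of the 10 overlapped. Shares of a sum depend on each other, so that lower counts of some genes raise the shares of the rest. How many of all genes would separate against the same sum was not counted. No test was run on sums or shares.

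**Figure D5:**
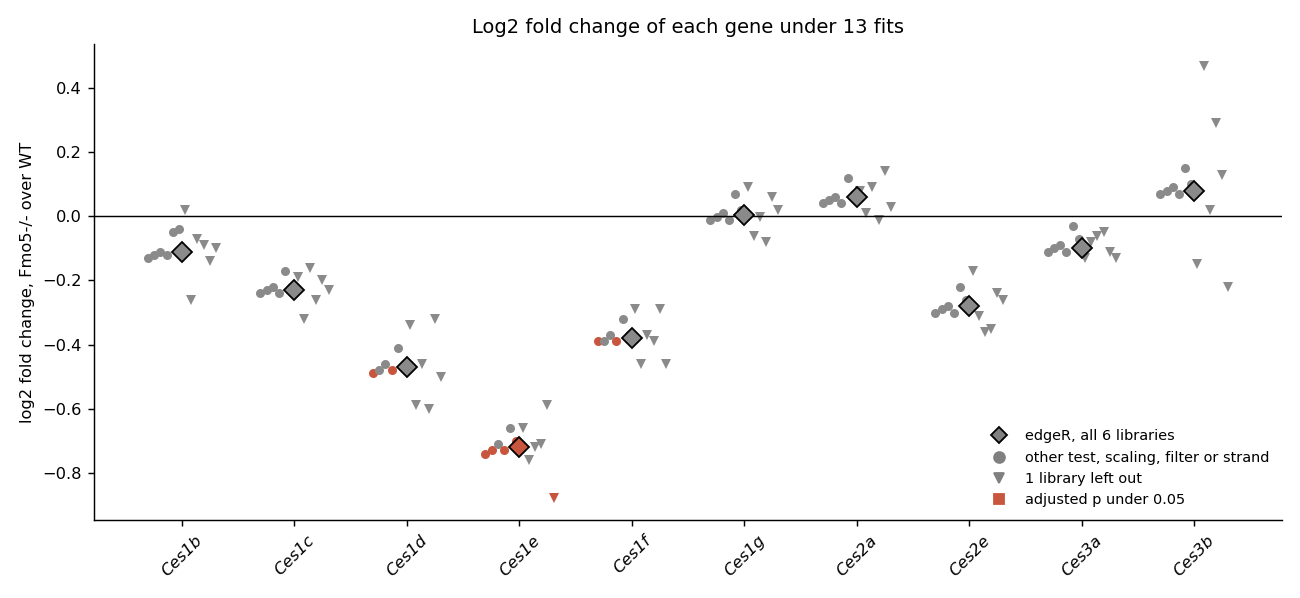
Log2 fold change of each of the 10 genes under the 13 fits, that is edgeR on all 6 libraries (diamonds), 6 other choices of test, scaling, filter or strand (circles) and 6 fits without 1 library (triangles), with red for an adjusted p under 0.05. *Ces1e* stays between -0.88 and -0.59, and *Ces3b* ranges from -0.22 to 0.47.

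Of the other carboxylesterase genes, 6 were tested, of which only *Ces2c* and *Ces2g* reach the mean of 500 that a call requires. Neither of these was called by edgeR or DESeq2, and none of the 6 had an unadjusted p under 0.05 from edgeR, where 10.2% of all tested genes were lower and 11.6% higher at that threshold. *Ces2c* had mean normalized counts of 3003 ± 529 in WT and 2646 ± 470 in *Fmo5*-/- mice, and *Ces2g* of 2143 ± 194 and 2110 ± 184. *Ces4a*, at 120 ± 62.4 and 70.5 ± 32.7, had a log2 fold change of -0.77 with an interval of -1.85 to 0.31 (adjusted p = 0.384 from edgeR). *Ces1a*, *Ces2b* and *Ces2h* had means of at most 33.3. *Ces1h*, *Ces2d-ps*, *Ces2f* and *Ces5a* did not pass the filter, and *Ces1h*, *Ces2f* and *Ces5a* had at most 3 raw counts in any library. Genes outside the family that lie within 500 kb of either group were not called either, 0 of 7 around the *Ces1* genes and 0 of 38 around the *Ces2* and *Ces3* genes, but their median mean counts, 144 and 313, are below the 500 that a call requires. *Gm45909*, a model of unknown type inside the span of *Ces1d* and on its strand, had a log2 fold change of -0.72 at a mean normalized count of 69.2 (adjusted p = 0.133 from edgeR).

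Other ester, amide, epoxide and lipid hydrolases of the liver included 4 genes called lower and 0 called higher by edgeR, of 27 tested. It called lower 0.496% of all tested genes and 1.06% of those with a mean of 500 or more. DESeq2 called 9 lower and 0 higher, where it called 6.77% of genes with a mean of 500 or more lower. Without 1 library, edgeR called 0 to 4 of the list lower and 0 to 2 higher. The median log2 fold change of the list was -0.15, against -0.062 for genes with a mean of 500 or more. The study had picked some genes of this list, *Ephx1* and *Mgll* among them, from these libraries, so the list is not independent evidence of a direction. *Aadac*, which encodes arylacetamide deacetylase, a hydrolase of the ER, had mean normalized counts of 25980 ± 1591 in WT and 14983 ± 2226 in *Fmo5*-/- mice, a log2 fold change of -0.79 (adjusted p = 0.0239 from edgeR). *Ephx1*, which encodes microsomal epoxide hydrolase, was lower by a log2 fold change of -0.56 (adjusted p = 0.0378 from edgeR). *Mgll*, encoding monoacylglycerol lipase, had a log2 fold change of -0.64 (adjusted p = 0.043 from edgeR) and *Lypla1*, encoding a lysophospholipase that removes acyl groups from proteins, one of -0.45 (adjusted p = 0.0468 from edgeR).

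Of 22 genes of VLDL assembly and secretion, the pathway that CES1 enzymes supply, 3 were called lower and 0 higher by edgeR. DESeq2 called 15 lower and 0 higher, and without 1 library edgeR called 1 to 3 lower. The median log2 fold change was -0.36. The shares called and the median over other genes are those given for the hydrolases. All 22 were below 0 and 19 were lower without overlap, where 64% and 21.9% of genes with a mean of 500 or more were. This list too holds genes that the study picked from these libraries, and its direction is not independent evidence. *Apoa4*, an apolipoprotein, had a log2 fold change of -1.51 (adjusted p = 0.000782 from edgeR). *Mttp*, which loads triacylglycerol onto apolipoprotein B, had one of -0.59 (adjusted p = 0.0468 from edgeR) and *Sec24a*, of the vesicle coat that leaves the ER, one of -0.45 (adjusted p = 0.0468 from edgeR).

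None of 25 transcription factors listed as regulators of carboxylesterase genes was called, and their median log2 fold change was -0.09. At an unadjusted p under 0.05 from edgeR, 3 of the 25 were lower. The share was 10.2% of all tested genes and 17.6% of those with a mean of 500 or more. DESeq2 called 1 lower, *Nfe2l2*, where it called 6.77% of genes with a mean of 500 or more lower. The 3 with the smallest p were *Nfe2l2*, which encodes NRF2, at 4324 ± 286 normalized counts in WT and 3525 ± 182 in *Fmo5*-/- mice (adjusted p = 0.0938 from edgeR and 0.033 from DESeq2), *Hlf* at 2089 ± 225 and 1648 ± 237 (adjusted p = 0.152 from edgeR) and *Nr1h4*, the bile acid receptor, at 7941 ± 150 and 6588 ± 910 (adjusted p = 0.187 from edgeR). Of 27 tested targets of CAR and PXR, the receptors that respond to drugs, 2 were called higher, where 0.257% of all tested genes were, and 0 lower. By DESeq2, 2 were called higher and 3 lower, where 1.39% of the genes it tested were called higher and 3.39% lower. Of genes with a mean of 500 or more, it called 6.77% lower and 216 of 7796 higher, and edgeR called 43 of 7819 higher. The median log2 fold change of the targets was -0.08, with 15 of the 27 below 0. Those called higher by edgeR were the cytochrome P450 gene *Cyp2c55*, with a log2 fold change of 0.81 (adjusted p = 0.0275 from edgeR), and the glutathione transferase gene *Gstm3*, with one of 0.85 (adjusted p = 0.043 from edgeR).

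Egasyn, the product of *Ces1e*, has β-glucuronidase as its partner. *Gusb*, which encodes that partner, had mean normalized counts of 1251 ± 49.9 in WT and 1170 ± 112 in *Fmo5*-/- mice, a log2 fold change of -0.10 (adjusted p = 0.581 from edgeR). Of the 4 genes for retrieval to the ER that include *Gusb*, 0 were called, 1 had an unadjusted p under 0.05 from edgeR, and DESeq2 called 0. *Kdelr1*, a receptor for the retrieval signal, was at 3825 ± 10.5 against 3298 ± 106, with a log2 fold change of -0.21 (adjusted p = 0.132 from edgeR), and *Kdelr2* at 3538 ± 325 against 3208 ± 262.

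Markers of other cells also moved with genotype. All 11 markers of Kupffer cells and macrophages had a higher mean in *Fmo5*-/- mice, and they summed to 276 to 325 CPM in WT and to 429 to 784 in *Fmo5*-/- mice. Of these 11 markers, edgeR called 1, *Clec4f*, and DESeq2 8, 11 had an unadjusted p under 0.05 from edgeR and 10 did not overlap between the genotypes. Over all tested genes, 11.6% were higher at an unadjusted p under 0.05 and 13.9% were higher without overlap. By call, edgeR had 0.257% of them higher, and DESeq2 had 1.39% of the genes it tested higher. Among genes with a mean of 500 or more, which a call requires, these were 43 of 7819 by edgeR and 216 of 7796 by DESeq2. All 8 markers of T and B cells were also higher on average in *Fmo5*-/- mice, 3 without overlap and 4 at an unadjusted p under 0.05 from edgeR. Their median log2 fold change was 0.87, none reached the mean of 500 that a call requires, and they summed to 5.85 to 9.42 CPM in WT and 8.81 to 18.4 in *Fmo5*-/- mice. Perivenous hepatocyte markers, of which 1 of 10 was called higher, *Cyp1a2*, summed to 9190 to 12500 CPM in WT and 10800 to 13100 in *Fmo5*-/- mice, and periportal markers to 6840 to 7160 and 5910 to 7780. Of the 10 perivenous markers, 8 had a log2 fold change above 0, with a median of 0.26 over the list, 4 were higher at an unadjusted p under 0.05 from edgeR, 3 without overlap, and DESeq2 called 2 higher. Of the 10 periportal markers, 7 were below 0, with a median of -0.07 over the list, 3 were lower at an unadjusted p under 0.05 from edgeR, 3 without overlap, and DESeq2 called 2 lower. Among all genes with a mean of 500 or more, the corresponding shares of genes lower were 17.6%, 21.9% and 6.77%. For genes higher, the shares at an unadjusted p under 0.05 and without overlap were counted only over all tested genes, as given above. Sums of endothelial, stellate, bile duct and red blood cell markers overlapped between the genotypes, and those of neutrophils were 3.06 to 5.32 CPM in WT and 6.24 to 12.7 in *Fmo5*-/- mice. Markers of pancreatic acinar cells and gut epithelium, of which *Amy2a5* and *Cpa1* were at 0, summed to 133 to 150 CPM in WT and 102 to 128 in *Fmo5*-/- mice, and none was called by edgeR. Of the 4 tested, 1 had a log2 fold change below 0, *Fabp2*, which DESeq2 called lower, and 3 were above 0, with a median of 0.20 over the 4. The part of these cells, and of the place of hepatocytes in the lobule, in the values of the carboxylesterases was not tested.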

How the data were processed

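RNA from 6 livers was sequenced with single reads of 75 bases. The authors clipped adapters, used STAR 2.6.0c to map the reads to mm10, and deposited the raw counts per gene of each library, for both strands together and for each strand. They also deposited a table of their DESeq2 1.22.2 comparison, whose signal columns hold the counts divided by 1 size factor per library. Its other columns hold the authors' mean, fold changes, standard errors, statistics and p-values, and were not used. Counts of both strands and this signal differed by a constant factor within each library, so these counts were analysed. The other deposited columns, the counts of each strand, served only as an alternative.

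Libraries were grouped by genotype, from the labels. In R 4.3.3, genes were kept by filterByExpr (minimum count 10), scaled with TMM factors and tested with edgeR 4.0.16 (robust quasi-likelihood test, two-sided), with Benjamini-Hochberg adjustment over 16734 genes. The limit of 500 on the mean count is that of the study. DESeq2 1.42.0, other scalings and filters, 1 strand, and fits without each library were alternatives. Each library is of 1 mouse. The rows of reads that are unmapped, map to several places, lie in no gene or in several were left out, so that 66.2% to 69.2% of the reads listed were used. Depth limits precision little at these counts, since the lowest raw count of the 10 genes was 2355. The scripts were tested on simulated data.

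Named genes are the 10, all other carboxylesterase genes, *Fmo5*, and from each pathway list the genes called or else the 3 with the smallest p. Outside this rule, *Gm45909*, *Cyp1a2*, *Clec4f*, *Fabp2*, *Gm7208*, *Amy2a5*, *Cpa1*, *Alb*, the adipocyte markers, *Onecut1* and *Alas1* were named after their values were seen. The genes, lists and tests were chosen with earlier results of these data known. Exons and 75-base stretches are from GENCODE vM21, and upstream sequences from RefSeq. Comparisons of protein sequences had been planned but were not made, as no protein sequences were used here.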

Additional observations from a re-analysis of the deposited data

How the results depend on the processing

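No paired analysis was possible because the labels give no replicate numbers that link mice of the 2 genotypes. The sign of the log2 fold change held for *Ces1c*, *Ces1d*, *Ces1e*, *Ces1f*, *Ces2e* and *Ces3a* in all 12 alternatives. With DESeq2, *Ces1d* (-0.49) and *Ces1f* (-0.39) were called, and with no filter on low counts likewise (-0.48 and -0.39). In each, 3 of the 10 genes were thus called lower, where 6.77% and 9% of all genes with a mean of 500 or more were. *Ces1e* was not called when the 20 most abundant genes were set aside for the scaling (-0.71, adjusted p from edgeR = 0.0507). It was not called either when the limit of 500 was applied first (-0.66, adjusted p from edgeR = 0.0679). Each of these left 0 called. Over all alternatives its adjusted p ran from 3.1e-10, from edgeR with no filter, to 0.147, from edgeR without the first WT mouse. With no filter, the standard errors of the 10 genes, *Ces3b* apart, were all 0.1 to 0.105, against 0.0939 to 0.172 with the filter. They thus hardly followed the spread of each gene between mice, which limits the p-values of that fit. Without 1 library, the log2 fold change of *Ces1e* was -0.88 to -0.59 and the number of the 10 genes called lower 0 to 1. *Ces1g* changed sign with DESeq2 (-0.01), RLE scaling (-0.0033) and no filter (-0.01), and leaving out 1 library gave -0.08 to 0.09 for *Ces1g*, -0.26 to 0.02 for *Ces1b*, -0.01 to 0.14 for *Ces2a* and -0.22 to 0.47 for *Ces3b*. The cause of these changes was not tested.

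The number of other hydrolases called lower was 9 with DESeq2, 9 with no filter and 1 with the limit first. With no filter, 1 was called higher. Among all genes with a mean of 500 or more, 6.77% were called lower with DESeq2 and 9% with no filter. The share with the limit first was not counted. For VLDL genes the number lower was 15 with DESeq2, 16 with no filter and 1 with the limit first, against the same shares. With DESeq2 and with no filter, the regulators called lower were 1 and 3, and the CAR and PXR targets called lower 3 and 6. The targets called higher were 1 with the limit first and 1 with the reads of 1 strand. Without 1 library, hydrolases called lower ranged from 0 to 4 and higher from 0 to 2, VLDL genes lower from 1 to 3, and CAR and PXR targets lower from 0 to 2 and higher from 0 to 2. With only exon stretches unique to a gene as its length, the WT level per kb was 163 for *Ces2a* and 835 for *Ces3a*. The interval of the log2 fold change was widest for *Ces3b*, whose counts varied most between mice.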

Other observations

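*Onecut1*, which encodes the liver factor HNF6, was looked at after its values were seen, because it varied between mice more than the other regulators. Its normalized counts were 110, 2562 and 202 in WT mice and 333, 1313 and 2641 in *Fmo5*-/- mice. The second WT mouse and the third *Fmo5*-/- mouse were the highest of the 6, and the first mouse of each genotype was the lowest of its group, as they were for *Ces3b*. *Alas1*, which encodes the first enzyme of haem synthesis, was likewise highest in the second WT mouse, at 28775, and lowest in the first WT mouse, at 2462. No test was run on this likeness, which spans 6 mice.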
